A study of Mus musculus with 8 samples.

Results

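Oxidative phosphorylation is carried out by protein complexes of the inner mitochondrial membrane, and its genes were followed here in mouse epidermis. Genes were taken by symbol, as those beginning with mt-, Nduf, Uqcr, Atp5 or Cox4 to Cox8 that lay above 0 in at least 1 library. This gave 100 of the 21690 genes in the expression table, 13 encoded by mitochondrial DNA and 87 encoded in the nucleus. A further 4 matching entries were at 0 in all 8 libraries: Cox7b2, Cox8b, Cox8c and a second identifier of Atp5o. The rule leaves out complex II, which is described separately below, and Cyc1, the cytochrome c1 of complex III.

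RNA of back-skin epidermis from pups of postnatal day 5 was sequenced in 4 Experimental and 4 Control libraries. Experimental animals carried floxed Esrp1 on both alleles, Esrp2-/-, and a tetO-driven Cre switched on by a reverse tetracycline transactivator under keratin 5 (K5rTA tetOCre). Control animals carried the same floxed Esrp1 and Esrp2-/- alleles without these transgenes. Dams of both groups ate doxycycline chow from embryonic day 17 onward, so both groups lacked Esrp2 by genotype and both saw the drug. Esrp1 and Esrp2 encode splicing regulators of epithelial cells. The comparison therefore concerns the added deletion of Esrp1 in keratin 5 cells and their progeny, together with any effect of the transgenes.

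The electron transport chain passes electrons from NADH through complex I, or from succinate through complex II, by way of complex III to complex IV, which reduces oxygen. Complexes I, III and IV pump protons, and complex V, the ATP synthase, uses the gradient to make ATP. Mitochondrial DNA supplies a few core subunits of every complex except complex II, transcribed as long precursors from both strands and cut into mRNAs. All other subunits are nuclear encoded and imported. In epidermis, mitochondria are most active in the living layers and are lost as keratinocytes cornify.

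Levels are TPM, a length-normalized share of the transcripts of a library, and the table writes 0 where a gene had 1 TPM or less. Libraries are named 1 to 4 within a group in the order of their columns. Control libraries 1 and 2 carry the lowest numbers in the column names, below all Experimental libraries, and the meaning of these numbers is not stated. The deposited values are marked as having no batch correction, and no batch is named. Differences tied to the column numbers were not tested. Esrp1 had 65.0, 49.8, 75.6 and 66.5 TPM in Experimental libraries, against 135, 131, 133 and 162 TPM in Control libraries (log2 change -1.13, SE 0.17; by limma, adjusted p = 0.0112). Esrp2 lay between 3.25 and 5.28 TPM in Experimental libraries and between 0 and 3.31 TPM in Control libraries. Suprabasal keratinocyte markers (Krt1, Krt10, Krtdap and Sbsn) summed to between 63452 and 79481 TPM in Experimental libraries and between 35691 and 56503 TPM in Control libraries. The 3 endothelial markers (Pecam1, Cdh5 and Kdr) were at 0 in all, while fibroblast and adipocyte markers, given below, were uneven among Control libraries. Of 10682 genes tested, 98 were higher and 165 lower in Experimental libraries, which is 0.917% and 1.54% (limma, Benjamini-Hochberg adjusted p under 0.05). With each library centred on its median gene, 283 were higher and 102 lower, and after quantile normalization 269 were higher and 117 lower. The median log2 change of all tested genes was -0.18, and 25.5% of them lay above 0. These figures are the background for the counts given here. In bulk tissue, fewer cells of a type and less RNA per cell cannot be told apart. The labels call the samples biological replicates, and nothing else says whether they are separate litters or animals.

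Several of the 13 mitochondrial genes share bases with a neighbour, so reads there can belong to either gene and their levels are less certain. The overlaps of more than 1 base are shown because they limit how far mt-Atp8, mt-Atp6, mt-Nd4l, mt-Nd4, mt-Nd5 and mt-Nd6 can be separated. The sequences are the plus strand of GRCm38 with 20 bases on each side, and capitals mark the shared bases. The overlap of mt-Atp8 and mt-Atp6 spans 43 bases (chrM:7927-7969), that of mt-Nd4l and mt-Nd4 spans 7 bases (chrM:10167-10173), and that of mt-Nd5 and mt-Nd6, which lie on opposite strands, spans 14 bases (chrM:13552-13565).
mt-Atp8 and mt-Atp6: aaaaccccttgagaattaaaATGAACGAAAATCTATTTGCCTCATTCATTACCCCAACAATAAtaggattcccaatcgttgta
mt-Nd4l and mt-Nd4: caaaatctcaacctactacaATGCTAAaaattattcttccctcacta
mt-Nd5 and mt-Nd6: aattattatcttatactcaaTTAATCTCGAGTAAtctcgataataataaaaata
In the first of these, the capitals open with ATG, the start codon of mt-Atp6, and they run to the last base of mt-Atp8. The mt-Atp6 gene also shares 1 base, at position 8607, with mt-Co3. The sources used here do not say whether the counting used the strand, so mt-Nd6, the one protein gene of the other strand, cannot be fully told apart from antisense reads.

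Promoters of 3 nuclear encoded genes are shown next, from 250 bases before to 50 after the start (RefSeq, GRCm38.p6, written 5′ to 3′ along the gene). Ndufa4 is shown because it was the one gene of the set past the threshold, Cox6a1 because it was the next most abundant nuclear gene of complex IV, and Atp5k because it was the most abundant of complex V. Capitals mark matches to sequences bound by factors known for respiratory genes, searched on both strands: the palindromic NRF1 site, ETS factors such as GABPA as CCGGAAG, SP1 as GGGCGG and the YY1 site. All 3 genes lie on the minus strand.
Ndufa4, chr6:11907401-11907700: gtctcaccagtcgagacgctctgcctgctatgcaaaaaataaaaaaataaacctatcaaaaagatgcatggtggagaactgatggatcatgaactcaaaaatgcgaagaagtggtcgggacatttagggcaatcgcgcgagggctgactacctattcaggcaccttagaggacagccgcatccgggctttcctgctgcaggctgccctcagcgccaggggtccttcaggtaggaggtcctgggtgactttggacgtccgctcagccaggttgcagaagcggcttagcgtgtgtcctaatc
Cox6a1, chr5:115348909-115349208: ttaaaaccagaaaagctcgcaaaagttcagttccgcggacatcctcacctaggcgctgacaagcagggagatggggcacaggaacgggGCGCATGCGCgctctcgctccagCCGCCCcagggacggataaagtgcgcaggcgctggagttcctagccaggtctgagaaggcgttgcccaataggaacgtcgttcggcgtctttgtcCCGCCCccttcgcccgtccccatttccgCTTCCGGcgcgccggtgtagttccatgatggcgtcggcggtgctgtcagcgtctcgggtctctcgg
Atp5k, chr5:108434350-108434649: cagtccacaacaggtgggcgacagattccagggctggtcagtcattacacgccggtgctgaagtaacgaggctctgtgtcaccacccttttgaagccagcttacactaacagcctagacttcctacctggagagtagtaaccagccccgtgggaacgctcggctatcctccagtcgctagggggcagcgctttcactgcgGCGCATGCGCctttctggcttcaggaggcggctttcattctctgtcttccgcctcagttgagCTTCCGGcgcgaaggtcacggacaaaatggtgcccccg
The Cox6a1 window held 1 NRF1, 1 ETS and 2 SP1 matches, the Atp5k window held 1 NRF1 and 1 ETS match, and the Ndufa4 window held none of these letters. Of the 87 nuclear genes, 72 matched the RefSeq promoter table, with 77 promoters. The NRF1 sequence stood in 9.09% of these, against 0.971% of all 32851 promoters in the table. The ETS sequence stood in 20.8%, against 8.86% of all promoters. The SP1 sequence stood in 42.9%, against 35.7% of all, and the YY1 sequence in 7.79%, against 0.852% of all. A match is a description of the letters in this window and not a shown binding site.

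The 13 mitochondrially encoded mRNAs were a large share of the listed TPM, and that share was uneven among Experimental libraries. They made up 11.0%, 18.2%, 10.6% and 17.5% of the listed TPM in Experimental libraries 1 to 4, against 11.96%, 11.0%, 12.6% and 11.0% in Control libraries 1 to 4. Experimental libraries 2 and 4 stood above the other 6, and Experimental libraries 1 and 3 lay under the lowest Control library. The mean was 14.3% ± 4.10 in Experimental and 11.6% ± 0.755 in Control libraries (SD, n = 4 each), a difference of 2.68 percentage points that is smaller than the SD of the Experimental group. Without Experimental libraries 2 and 4, the 2 with the highest shares, the difference was -0.859 percentage points. A fall in the difference follows from leaving those libraries out.

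**Figure D1:**
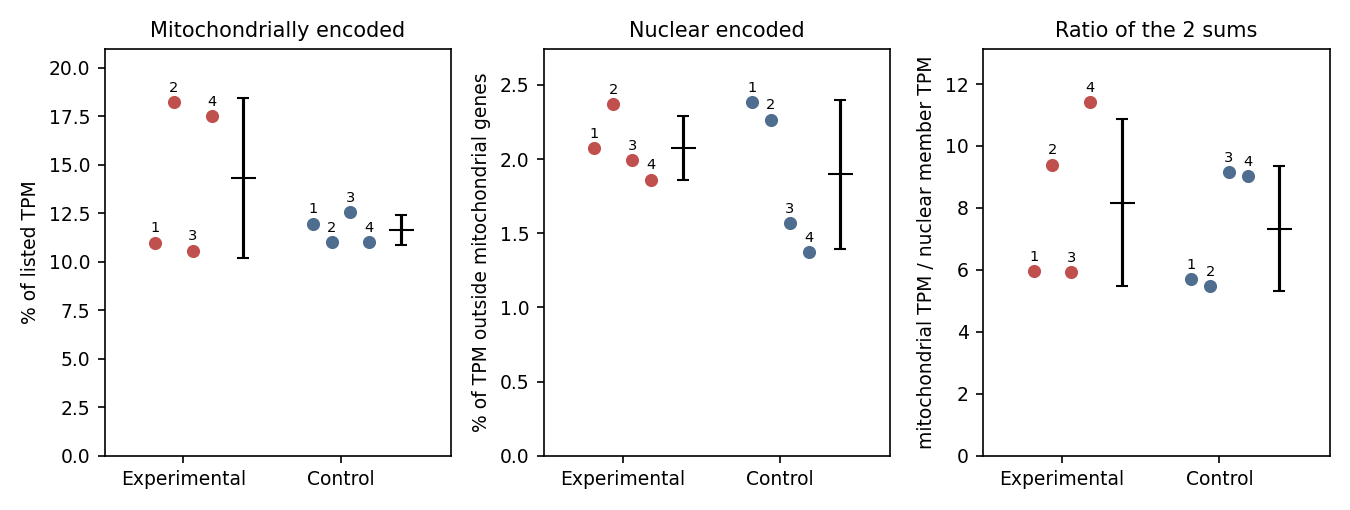
Share of mitochondrially encoded genes in the listed TPM (left, %), share of the 87 nuclear encoded genes in the TPM outside mitochondrially encoded genes (middle, %) and the ratio of the 2 sums (right), by library. Points are libraries with their numbers, and bars are mean ± SD of 4. Experimental libraries 2 and 4 stand apart on the left, and Control libraries 3 and 4 are the lowest in the middle.

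All 13 mitochondrial genes moved together in those libraries: each was higher in both Experimental libraries 2 and 4 than in any of the other 6. How many of all tested genes did so was not counted. mt-Co2, which carries the copper centre that takes electrons from cytochrome c, had 15663, 26230, 15165 and 22594 TPM in Experimental libraries, against 15855, 15368, 18384 and 16027 TPM in Control libraries. mt-Atp6, part of the proton channel of ATP synthase, had 15394, 27374, 14320 and 22746 TPM in Experimental libraries, against 16347, 15819, 17301 and 14894 TPM in Control libraries. In both genes Experimental libraries 1 and 3 overlapped or fell under the Control libraries. mt-Nd2, a membrane subunit of complex I, had 2692, 4146, 2481 and 3885 TPM in Experimental libraries, against 2831, 2496, 2369 and 1881 TPM in Control libraries. It had the largest log2 change of the 13, 0.44 (SE 0.24), and the lowest adjusted p, 0.384 by limma, and its groups overlapped.

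None of the 13 mitochondrial genes passed the threshold, and none passed even at an unadjusted p under 0.05. Their log2 changes lay between 0.13 for mt-Co1, the catalytic core of complex IV, and 0.44, with a median of 0.28, and 13 of 13 were above 0. After quantile normalization 10 of 13 were above 0. Without Experimental libraries 2 and 4 only 2 of 13 were, with a median of -0.08, a drop that follows from leaving out the highest libraries. By complex, the medians were 0.35 over the 7 subunits of complex I, 0.29 for mt-Cytb of complex III, 0.18 over the 3 of complex IV and 0.27 over the 2 of complex V. mt-Cytb, the haem-bearing core of complex III, had 7258, 11127, 6848 and 10689 TPM in Experimental libraries, against 7519, 6959, 7687 and 6638 TPM in Control libraries.

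**Figure D2:**
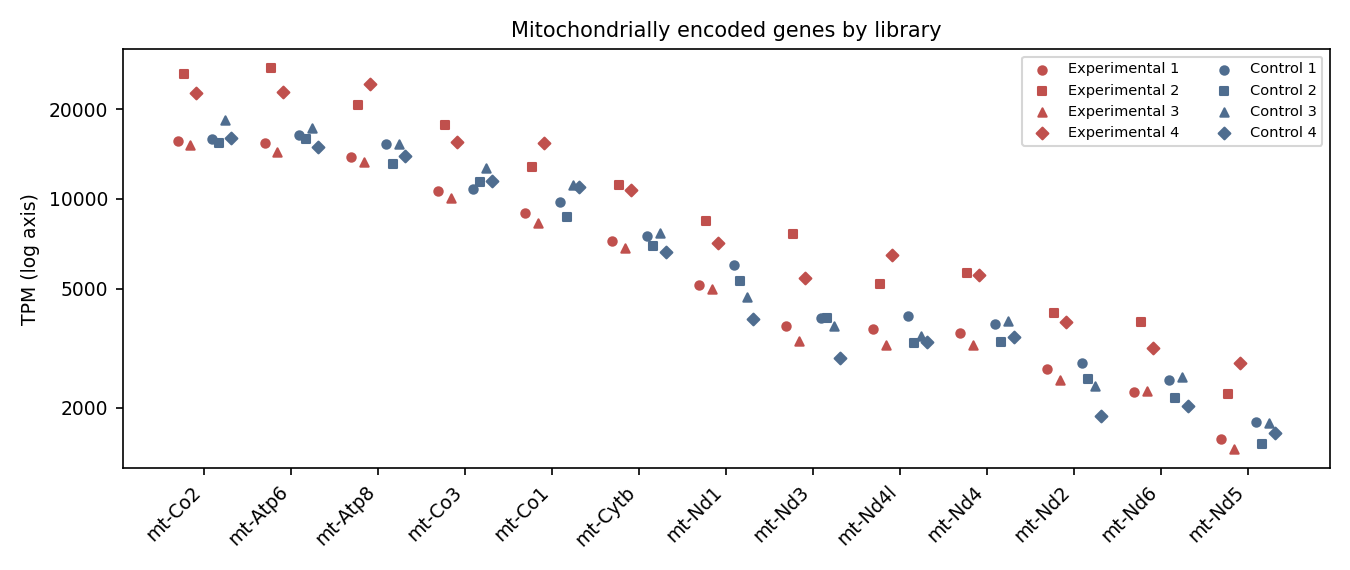
TPM (log axis) of the 13 mitochondrially encoded genes, each point 1 library, Experimental in red and Control in blue, with genes ordered by level. Experimental libraries 2 and 4 lie above all other libraries in every gene, while Experimental libraries 1 and 3 lie among or under the Control libraries.

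The balance among the 13 mRNAs varied less than their sum. mt-Cytb made up 7.69%, 7.27%, 7.69% and 7.34% of the mitochondrial TPM in Experimental libraries, against 7.48%, 7.45%, 7.32% and 7.13% in Control libraries, a range of 1.08-fold over 8 libraries. mt-Nd4, a proton-pumping subunit of complex I, was as steady, with a range of 1.07-fold. The widest ranges were 1.58-fold for mt-Nd3, 1.41-fold for mt-Nd2 and 1.40-fold for mt-Co1. mt-Co1 made up 9.47%, 8.36%, 9.33% and 10.6% of the mitochondrial TPM in Experimental libraries, against 9.75%, 9.31%, 10.6% and 11.7% in Control libraries. mt-Nd1, a membrane subunit of complex I, ran the other way in Control libraries 3 and 4, with 5.45%, 5.52%, 5.60% and 4.90% in Experimental libraries, against 5.96%, 5.68%, 4.49% and 4.26% in Control libraries. These shares are parts of 1 sum, so a larger share of one gene lowers the others.

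Erythroid genes were uneven across the same libraries. The sum of 5 erythroid markers (haemoglobin genes and Alas2, all 5 above 0) was 403, 4178, 222 and 1439 TPM in Experimental libraries, against 181, 9583, 1613 and 195 TPM in Control libraries. It was higher in Experimental libraries 2 and 4 than in 1 and 3, as the mitochondrial share was, but was highest in Control library 2, whose mitochondrial share was 11.0%. Its part in the mitochondrial share was not tested.

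The nuclear encoded genes behaved differently: as a group they were level between the groups and uneven among Control libraries. They made up 1.85%, 1.94%, 1.78% and 1.53% of the listed TPM in Experimental libraries, against 2.10%, 2.01%, 1.37% and 1.22% in Control libraries. The mean was 1.78% ± 0.173 in Experimental and 1.68% ± 0.444 in Control libraries (SD, n = 4 each). Since a high mitochondrial share lowers every other TPM, the nuclear genes were also set against the TPM outside mitochondrial genes, where they made up 2.07%, 2.37%, 1.99% and 1.86% in Experimental libraries, against 2.38%, 2.26%, 1.57% and 1.37% in Control libraries. On both scales all 4 Experimental libraries lay inside the Control range. The mitochondrial sum was 5.95, 9.40, 5.93 and 11.4 times the nuclear sum in Experimental libraries, against 5.70, 5.47, 9.15 and 9.02 times in Control libraries. High ratios thus occurred in both groups, with high mitochondrial sums in Experimental libraries 2 and 4 and low nuclear sums in Control libraries 3 and 4.

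Control library 1 held the highest value for 65 of the 87 nuclear genes. Control library 4 held the lowest value for 67 of the 85 nuclear genes that were above 0 in all 8 libraries. In 82 of 87 genes both Control libraries 1 and 2 exceeded both Control libraries 3 and 4. The share of all tested genes with these orderings was not counted, so they are not shown to be particular to this set. The median log2 distance of a gene from its own mean was 0.08, 0.07, -0.04 and -0.21 in Experimental libraries, against 0.40, 0.31, -0.30 and -0.54 in Control libraries. The ratio of the highest to the lowest library within a group had a median of 1.34 in Experimental and 1.96 in Control libraries over the nuclear genes. Over all tested genes that median was 1.52 in Experimental and 1.77 in Control libraries, and over the 13 mitochondrial genes it was 1.75 in Experimental and 1.20 in Control libraries. Of 85 nuclear genes, 78 spread more widely in Control than in Experimental libraries. How many of all tested genes did so was not counted. Over all 85, the spread in Control libraries ran from 1.23-fold for Ndufa4 to 9.40-fold for Cox6b2. Ndufa4 was not among the 78, with a spread of 1.37-fold in Experimental libraries.

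**Figure D3:**
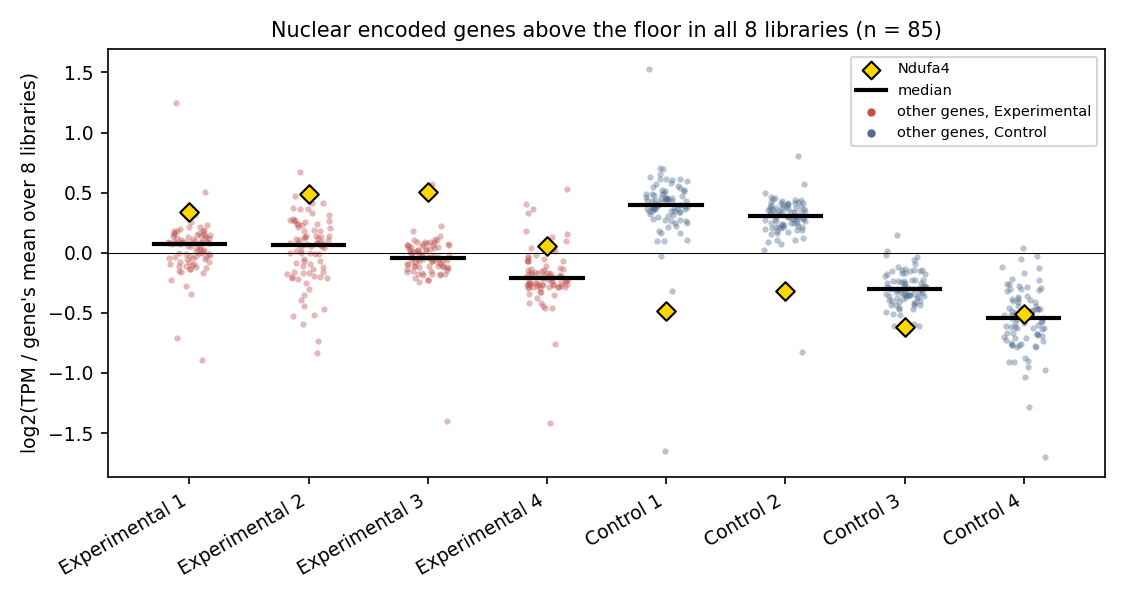
log2 of TPM over the gene's mean of 8 libraries for the 85 nuclear encoded genes above 0 in all of them, by library, with medians as black bars and Ndufa4 as yellow diamonds. Medians are 0.40 and 0.31 in Control libraries 1 and 2 and -0.30 and -0.54 in Control libraries 3 and 4, with the Experimental libraries between them, while all 4 Ndufa4 values of the Experimental libraries lie above those of the Control libraries.

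Several marker and gene lists ranked the Control libraries like the nuclear genes, among them basal keratinocyte, proliferation, Langerhans cell and ribosomal protein genes. The 6 basal markers (Krt5, Krt14, Krt15, Col17a1, Itga6 and Itgb4, all above 0) summed to 2111, 1715, 2951 and 1982 TPM in Experimental libraries, against 7952, 6802, 2783 and 905 TPM in Control libraries. The 24 cell cycle genes, a list added after the data were seen and all above 0, summed to 150, 162, 158 and 155 TPM in Experimental libraries, against 520, 338, 127 and 59.7 TPM in Control libraries. The 5 Langerhans cell and macrophage markers (Cd207, Cd74, H2-Aa, Csf1r and Adgre1, all above 0) summed to 189, 388, 257 and 319 TPM in Experimental libraries, against 532, 520, 303 and 137 TPM in Control libraries. Each of these 3 sums ranked the 4 Control libraries as the median of the nuclear genes did. So did mitochondrial ribosomal proteins, with 2417, 2421, 2278 and 2136 TPM in Experimental libraries, against 3096, 2845, 1979 and 1646 TPM in Control libraries, and cytosolic ribosomal proteins, with 104293, 112900, 97339 and 87258 TPM in Experimental libraries, against 130369, 121473, 85067 and 69286 TPM in Control libraries. The 4 sebaceous gland markers (Scd1, Mgst1, Awat1 and Elovl3, all above 0) summed to 122, 104, 86.5 and 90.8 TPM in Experimental libraries, against 402, 346, 152 and 155 TPM in Control libraries. That sum was high in Control libraries 1 and 2, and its groups did not overlap. Hair follicle markers, all 6 above 0, ran from 1130 to 8741 TPM in Experimental libraries and from 4441 to 32461 TPM in Control libraries, highest in Control library 4. Fibroblast markers, 4 of 6 above 0, summed to at most 3.29 TPM in Experimental libraries. In Control libraries 1 to 4 they summed to 29.6, 6.57, 1.10 and 0 TPM, the rank order of the nuclear genes. Adipocyte markers, 2 of 5 above 0, summed to between 71.1 and 278 TPM in Experimental libraries. In Control libraries 1 to 4 the adipocyte sums ran the reverse way, with 100, 307, 573 and 1129 TPM. The part of these cell types and lists in the nuclear gene levels was not tested.

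Of 86 nuclear genes tested, 1 was higher and 0 were lower in Experimental libraries (limma, adjusted p under 0.05), against a background of 0.917% higher and 1.54% lower. At an unadjusted p under 0.05 there were 2, Ndufa4 and Cox7a1. The median log2 change was 0.01, and 45 of 86 were above 0, against -0.18 and 25.5% over all tested genes. After centring each library on the median gene, 79 of 86 were above 0 with a median of 0.22, where the median of all genes shifted by 0.21. With TPM rescaled to leave out mitochondrial genes, 51 of 86 were above 0 with a median of 0.05. In 1 of the 86 tested genes, Ndufa4, every Experimental library was above every Control library, and in 0 of 86 was every one below, against 2.7% and 9.94% of all tested genes. The same held for Cox6a2, which missed the filter on low levels and is not part of that background. It was above the floor in Experimental libraries only, at 1.03 TPM in the lowest. Cox6a2 thus entered the set through the group where it was higher, and its separation is no further result.

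The call for the nuclear genes depended on which Control libraries were used. The Control pairs left out were those where these same genes stood low (3 and 4) or high (1 and 2). The direction of each shift therefore followed from the choice and is no further result. Without Control libraries 3 and 4, 23 nuclear genes were lower and 1 was higher, with a median log2 change of -0.37 and 83 of 87 below 0. In that fit 22.0% of all 10713 tested genes were lower and 2.25% were higher. Among the 23 were Atp5a1 and Atp5b of the catalytic head of ATP synthase and Atp5c1 of its rotating shaft. Ndufv1 of the NADH-oxidizing site and Uqcrc1 and Uqcrc2 of complex III were others. Without Control libraries 1 and 2, the median was 0.39, 83 of 87 were above 0, none was lower and Ndufa4 alone was higher, where 1.95% of 10486 tested genes were higher. With limma library weights, 30 were lower and 2 were higher (Cox4i2 and Ndufa4), where 34.4% of all tested genes were lower.

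**Figure D4:**
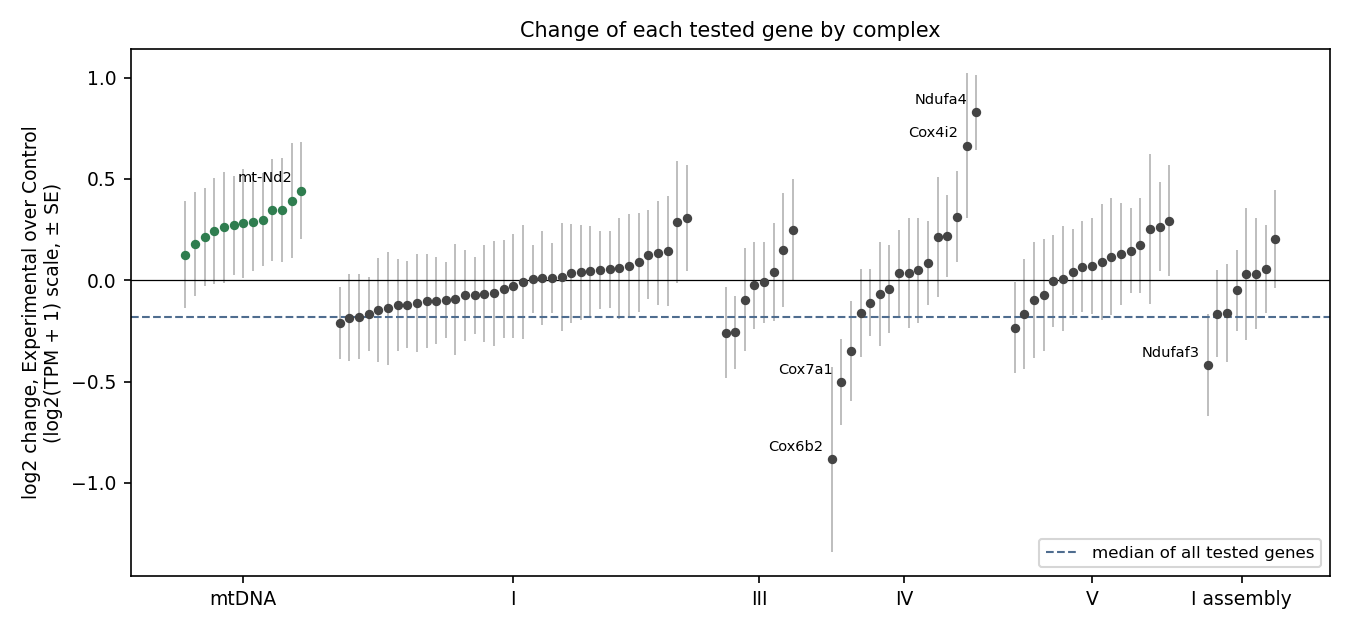
log2 change of each tested gene, Experimental over Control, on the log2(TPM + 1) scale with ± SE, grouped by complex and sorted within it, with mitochondrially encoded genes in green. The dashed line is the median of all tested genes, -0.18. Ndufa4 at 0.83 is the only gene past the threshold.

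Nuclear subunits of complex I, the NADH dehydrogenase, did not separate the groups. Of 37 subunits, 17 had a log2 change above 0 and 20 below, between -0.21 and 0.31, with a median of -0.03 and none past the threshold. The 7 core subunits, which carry the flavin and the iron-sulphur clusters, had a median of -0.11 with 1 of 7 above 0, and the 30 accessory subunits had a median of 0.01 with 16 above 0. Ndufa6, an accessory subunit of the matrix arm, averaged 125 ± 6.59 TPM in Experimental and 147 ± 28.9 TPM in Control libraries (adjusted p = 0.567 by limma). Ndufv3, an accessory subunit near the NADH site, averaged 108 ± 8.75 TPM in Experimental and 91.7 ± 34.0 TPM in Control libraries (adjusted p = 0.569 by limma). These were the 2 of lowest p, and in each the groups overlapped. The most abundant were Ndufa3 and Ndufs6, with 197 ± 23.4 and 175 ± 32.3 TPM in Experimental libraries, against 196 ± 23.5 and 189 ± 63.2 TPM in Control libraries. Mean levels over all libraries ran from 14.7 TPM for Ndufs4 to 197 TPM for Ndufa3.

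The 8 complex I assembly factors had mean levels between 2.33 and 20.02 TPM per gene, a range that reaches past the lowest subunit, Ndufs4 at 14.7 TPM. Their summed level was 61.1, 61.4, 64.2 and 61.8 TPM in Experimental libraries, against 94.4, 81.2, 55.3 and 37.2 TPM in Control libraries. The sum averaged 62.1 ± 1.40 TPM in Experimental and 67.0 ± 25.7 TPM in Control libraries (SD, n = 4 each), with Control libraries on both sides of the Experimental ones. Ndufaf3, needed for early assembly, had 4.48, 5.10, 5.55 and 3.36 TPM in Experimental libraries, against 9.27, 8.45, 5.15 and 4.13 TPM in Control libraries (log2 change -0.42, SE 0.25, adjusted p = 0.424 by limma). Ndufaf4 averaged 3.11 ± 1.08 TPM in Experimental and 2.54 ± 0.802 TPM in Control libraries. Ndufaf2, a late assembly chaperone and the most abundant, averaged 19.6 ± 1.49 TPM in Experimental and 20.4 ± 8.03 TPM in Control libraries. Ndufaf8 averaged 13.3 ± 2.04 TPM in Experimental and 14.3 ± 7.20 TPM in Control libraries. None of the 8 passed the threshold, and 4 of 8 had a log2 change above 0.

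The 8 nuclear genes of complex III, the cytochrome bc1 complex, that the rule took had a median log2 change of -0.02. Of these, 3 were above 0 and none passed the threshold. Cyc1, which encodes cytochrome c1 and lies outside the rule, averaged 48.0 ± 4.98 TPM in Experimental and 52.5 ± 17.2 TPM in Control libraries. It did not pass (log2 change -0.07, SE 0.23, adjusted p = 0.893 by limma). Uqcrb, a small subunit near the quinone site, had 318, 353, 307 and 287 TPM in Experimental libraries, against 449, 435, 308 and 336 TPM in Control libraries (log2 change -0.26, SE 0.18, adjusted p = 0.499 by limma). Its groups overlapped through the 2 lower Control libraries. Uqcrc2, a core subunit, averaged 46.2 ± 4.66 TPM in Experimental and 57.4 ± 18.4 TPM in Control libraries. Uqcr11, a small subunit and 1 of the 2 most abundant, had 395, 423, 366 and 271 TPM in Experimental libraries, against 456, 446, 261 and 207 TPM in Control libraries. Uqcr11 shows the common pattern, with Control libraries 1 and 2 high and 3 and 4 low around the Experimental values.

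Complex IV, cytochrome c oxidase, held the one gene past the threshold. Ndufa4 (ENSMUSG00000029632.7, GRCm38 chr6:11900292-11907497, minus strand) carries a complex I name but is now assigned to complex IV. It had 1863, 2063, 2094 and 1531 TPM in Experimental libraries, against 1052, 1184, 961 and 1032 TPM in Control libraries. Every Experimental library was above every Control library. The mean was 1888 ± 259 TPM in Experimental and 1057 ± 93.1 TPM in Control libraries (SD, n = 4 each), 1.79-fold higher (log2 change 0.83, SE 0.18, adjusted p = 0.0459 by limma). It was the most abundant of the 87 nuclear genes, with a mean of 1472 TPM over all libraries. Ndufa4 spread least of 85 nuclear genes among Control libraries, 1.23-fold from the lowest to the highest, against a median of 1.96-fold.

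The call for Ndufa4 lay close to the threshold. It passed in 11 of 20 alternative fits, with log2 changes between 0.72 and 1.04 in all of them. With 1 library left out, it passed only without Control library 4 (adjusted p = 0.0364), and the other 7 fits gave adjusted p up to 0.162 with log2 changes between 0.78 and 0.93. Near-identical copies of a gene elsewhere in the genome can share its reads, and the sources used here do not say how such reads were split. The authors' deposited table of expression differences holds 748 genes that all fell, so a gene higher in Experimental libraries could not appear there. All 100 genes of the set, Ndufa4 among them, were absent from it and from their MAJIQ splicing table of 236 genes.

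The same Ndufa4 values can be written as a part of the nuclear complex IV mRNA. It made up 31.6%, 34.8%, 37.0% and 33.3% of the nuclear complex IV TPM in Experimental libraries, against 19.98%, 22.0%, 25.6% and 27.6% in Control libraries. Of the TPM of all 87 nuclear genes it made up 11.7%, 12.7%, 13.9% and 11.99% in Experimental libraries, against 5.96%, 6.93%, 8.38% and 9.998% in Control libraries. The groups did not overlap in either share, and the Control shares were larger where the other nuclear genes were lower. These shares reuse the Ndufa4 values and give the call no separate support. Without it, the nuclear complex IV genes summed to 4032, 3862, 3564 and 3068 TPM in Experimental libraries, against 4214, 4204, 2795 and 2705 TPM in Control libraries. Those sums overlapped.

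**Figure D5:**
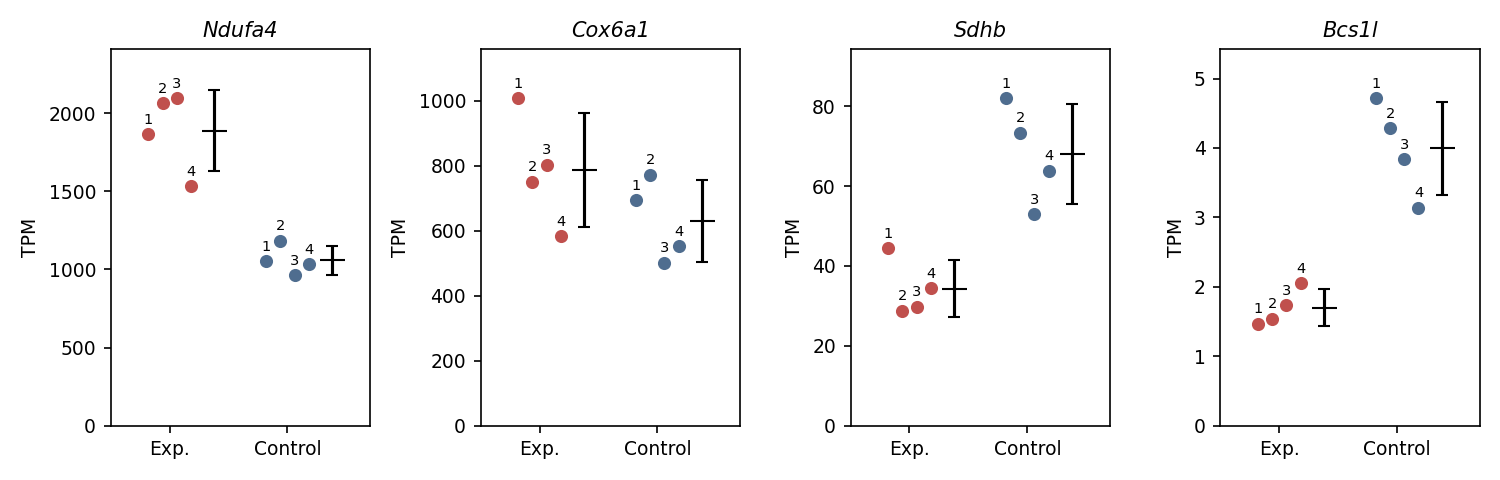
TPM of Ndufa4, Cox6a1, Sdhb and Bcs1l by library, with library numbers and mean ± SD of 4. The groups are apart in Ndufa4 (higher in Experimental), Sdhb and Bcs1l (lower in Experimental) and overlap in Cox6a1.

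Several complex IV subunits have tissue isoforms, and the widely expressed form was the abundant one in each pair. Cox6a1 had 1008, 751, 804 and 583 TPM in Experimental libraries, against 694, 773, 502 and 552 TPM in Control libraries (log2 change 0.31, SE 0.22, adjusted p = 0.501 by limma), and the groups overlapped. Its heart and skeletal muscle form Cox6a2 had 1.80, 2.05, 1.96 and 1.03 TPM in Experimental libraries and was listed at 0 in all 4 Control libraries. Since 0 means 1 TPM or less and Cox6a2 missed the filter of a mean of 1 TPM, no fold is given. Cox4i1, a regulatory subunit, averaged 375 ± 48.1 TPM in Experimental and 379 ± 131 TPM in Control libraries. Cox4i2, known from lung and from low oxygen, had 8.60, 2.04, 3.26 and 5.22 TPM in Experimental libraries, against 1.16, 2.05, 2.95 and 3.72 TPM in Control libraries (log2 change 0.66, SE 0.36, adjusted p = 0.380 by limma). Experimental library 1 held the highest Cox4i2 value, and the groups overlapped.

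Cox6b1 averaged 498 ± 86.3 TPM in Experimental and 428 ± 77.7 TPM in Control libraries. The testis form Cox6b2 had 2.13, 3.42, 1.498 and 1.48 TPM in Experimental libraries, against 11.4, 6.89, 3.56 and 1.21 TPM in Control libraries (log2 change -0.88, SE 0.46, adjusted p = 0.361 by limma). It was high in Control libraries 1 and 2, and the groups overlapped through Control library 4. Its adjusted p by limma was 0.0421 when Control library 4 was left out and 0.00748 when Control library 3 was left out as well. Cox6b2 was lowest among Control libraries in those left out, so the smaller p followed from the choice and is no further result. In the second of these fits 22.0% of all tested genes were lower. Without Control libraries 1 and 2 its adjusted p by limma was 0.938. Cox7a2 averaged 164 ± 18.9 TPM in Experimental and 189 ± 53.8 TPM in Control libraries. The muscle form Cox7a1 had 2.33, 0, 0 and 1.77 TPM in Experimental libraries, against 3.12, 2.63, 1.74 and 2.63 TPM in Control libraries (adjusted p = 0.260 by limma). Cox7a2l, which joins complexes III and IV in supercomplexes, had 96.9, 74.4, 78.7 and 67.0 TPM in Experimental libraries, against 140, 123, 90.9 and 64.9 TPM in Control libraries (adjusted p = 0.496 by limma).

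Cox7b averaged 110 ± 15.3 TPM in Experimental and 102 ± 44.2 TPM in Control libraries, while its paralog Cox7b2 was at 0 throughout. Cox8a averaged 377 ± 43.9 TPM in Experimental and 397 ± 106 TPM in Control libraries, while the muscle form Cox8b and the testis form Cox8c were at 0 throughout. Ndufa4l2, a paralog of Ndufa4 induced by low oxygen, had 54.8, 111, 85.8 and 112 TPM in Experimental libraries, against 71.7, 126, 80.8 and 72.5 TPM in Control libraries (log2 change 0.04, SE 0.27, adjusted p = 0.958 by limma). Unlike Ndufa4, its groups overlapped. Skeletal muscle markers summed to between 14.8 and 19.3 TPM in Experimental libraries and between 19.0 and 25.4 TPM in Control libraries, and 6 of 10 were at 0 (Mb, Cox8b, Ckm, Myh1, Myh4 and Tnnt3). That list holds Cox6a2 and Cox8b themselves.

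The 17 nuclear genes of complex V, the ATP synthase, had a median log2 change of 0.07, with 12 above 0 and none past the threshold. Atp5d, a subunit of the central stalk, had 430, 392, 404 and 283 TPM in Experimental libraries, against 371, 388, 257 and 250 TPM in Control libraries (log2 change 0.27, SE 0.22, adjusted p = 0.557 by limma). Atp5g2, one of the genes for the c ring, averaged 27.1 ± 8.46 TPM in Experimental and 22.2 ± 7.40 TPM in Control libraries. The abundant membrane subunits Atp5k and Atp5l averaged 482 ± 94.0 and 435 ± 54.5 TPM in Experimental libraries, against 470 ± 96.3 and 428 ± 133 TPM in Control libraries. Atp5c1, the rotating shaft, was the steadiest nuclear gene among Experimental libraries, with 112, 106, 105 and 104 TPM there, against 171, 153, 89.0 and 68.4 TPM in Control libraries. Atp5g1, another c ring gene, had 198, 220, 189 and 146 TPM in Experimental libraries, against 261, 249, 121 and 74.8 TPM in Control libraries. Atp5c1 and Atp5g1, singled out after their values were seen, show the Control spread that the group shared.

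Complex II and assembly genes outside the set held 2 genes past the threshold, both lower. These were 1 of 7 complex II genes and 1 of 27 assembly genes of complexes III and IV tested, with 0 of 5 for ATP synthase assembly. Over all tested genes 1.54% were lower, and in 9.94% every Experimental library was below every Control library. Sdhb, the iron-sulphur subunit of succinate dehydrogenase, had 44.4, 28.8, 29.7 and 34.4 TPM in Experimental libraries, against 82.0, 73.3, 52.9 and 63.9 TPM in Control libraries. The mean was 34.3 ± 7.15 TPM in Experimental and 68.0 ± 12.5 TPM in Control libraries (log2 change -0.97, SE 0.20, adjusted p = 0.0340 by limma), and the groups did not overlap. With 1 library left out it passed in 2 of 8 fits, with adjusted p up to 0.118. The authors' deposited table lists Sdhb with a log2 change of -0.78 and an adjusted p of 0.00457. The other 3 subunits of complex II did not pass. Sdha, the flavoprotein, averaged 37.3 ± 8.54 TPM in Experimental and 35.9 ± 8.57 TPM in Control libraries. The membrane anchors Sdhc and Sdhd averaged 38.5 ± 4.21 and 24.0 ± 3.34 TPM in Experimental libraries, against 46.3 ± 19.2 and 29.8 ± 16.3 TPM in Control libraries. Whether Sdhb differs from these 3 in its change was not tested.

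Bcs1l, the factor that inserts the Rieske protein into complex III, had 1.47, 1.54, 1.74 and 2.05 TPM in Experimental libraries, against 4.71, 4.28, 3.83 and 3.14 TPM in Control libraries. Its groups did not overlap, and its log2 change was -0.88 (SE 0.16, adjusted p = 0.0225 by limma), which at this low level understates the ratio of TPM. It passed in 3 of 8 fits with 1 library left out, with adjusted p up to 0.0793. The authors' deposited table lists it with a log2 change of -1.03 and an adjusted p of 9.12e-13. Uqcrfs1, the Rieske protein itself, averaged 68.3 ± 4.43 TPM in Experimental and 70.5 ± 18.3 TPM in Control libraries, and did not pass. Cycs, the mobile carrier cytochrome c, averaged 15.8 ± 1.86 TPM in Experimental and 16.8 ± 7.01 TPM in Control libraries, and did not pass either. Bcs1l was the one gene called among 27 tested assembly factors of complexes III and IV, whose median was -0.09.

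Other mitochondrial and metabolic lists had no gene past the threshold in limma in either direction. The 78 mitochondrial ribosomal proteins had a median log2 change of -0.06 with 30 above 0, and the 26 genes of mitochondrial transcription and RNA processing had a median of -0.16 with 3 above 0. The 10 tested nuclear regulators of mitochondrial genes had a median of -0.24 with 0 above 0, and Ppargc1a, the PGC-1alpha coactivator, was at 0 in every library. The 22 TCA cycle genes had a median of -0.15, the 15 fatty acid oxidation genes -0.16 and the 23 carriers and import genes -0.06, all nearer to 0 than the -0.18 of all tested genes. The 21 glycolysis genes had a median of 0.07 with 13 above 0. Within these lists the authors' deposited table names Mgme1, a nuclease for mitochondrial DNA ends, with a log2 change of -1.01 (adjusted p = 0.00289), and Ldhb, a lactate dehydrogenase subunit, with -1.09 (adjusted p = 0.0499). Ldhb had 11.3, 16.03, 11.96 and 7.68 TPM in Experimental libraries, against 43.5, 46.7, 18.8 and 15.7 TPM in Control libraries, and missed the threshold in limma (adjusted p = 0.115). Mgme1 was at 0 in 3 of 4 Experimental libraries and at 1.00 TPM in the other, against 2.40, 1.58, 1.20 and 1.83 TPM in Control libraries (adjusted p = 0.189 by limma).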

How the data were processed

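RNA from back-skin epidermis was purified with an RNeasy mini plus kit and libraries were made with NEBNext Ultra, per the labels' protocols (no source used here says whether poly(A) RNA was selected). Salmon 0.14.0, STAR, DESeq and SAMtools 1.9 are listed in the submitters' processing notes without their roles, along with GRCm38 and mm10 as builds. The deposited expression table holds log2 values of TPM per gene, and 0 stands for 1 TPM or less. This reading was checked against the deposited mean normalized signal in 4 bins of 100 genes: the ratio to the highest bin stayed between 0.95 and 1.01, where log2(TPM + 1) gave 1.48 in the lowest bin. TPM carries no depth, so depth was unknown and no counting interval is given. The authors' deposited differential table gives a mean signal, log2 fold changes, a Wald score and p-values, per the file headers. Their deposited MAJIQ table, used only for its gene names, gives fractions and a probability score, per the file headers.

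Of 21690 identifiers 21662 matched a symbol after the version was removed (GENCODE M21, GRCm38). Columns carry a group and a number that matches no label, so libraries were grouped but not paired. TPM, recovered from the log2 values, was set to at least 1 and taken as log2(TPM + 1), and genes with a mean of at least 1 TPM were fitted in limma 3.58.1 (R 4.3.3; group as the only term, eBayes with trend, two-sided, Benjamini-Hochberg over all genes). A fold change on this scale understates low genes. On simulated data the fit was checked for the recovery of known changes. Summaries used Python 3.11.15 with pandas 2.3.3, numpy 2.4.6 and scipy 1.17.1, and figures matplotlib 3.10.9. Shares are of the TPM listed in the table and have no test. The listed TPM came to between 83.2% and 86.0% of full TPM in Experimental and between 83.6% and 84.8% in Control libraries. The members and lists were chosen with earlier results of these data known. Most genes were named by rule: all mitochondrial genes, nuclear genes past the threshold, the 2 of lowest p and the 2 most abundant of each complex, and every isoform pair. For each related list the rule took genes past the threshold or else the 2 of lowest p, and not all of these are given. Some genes, such as Uqcrfs1, Sdha, Sdhc, Sdhd, Ppargc1a, Atp5c1 and Atp5g1, were named outside these rules. Alternatives were smaller pseudocounts (0.1, 0.5 TPM), other filters (none, mean of 5 TPM), median centring, quantile normalization, rescaling without mitochondrial genes, no trend, library weights, and leaving out libraries.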

Additional observations from a re-analysis of the deposited data

Results flagged for a closer look

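Of 89 groups of 4 libraries checked for a library far from the others, 1 was picked out, where chance alone picks out about 1 in 20. Ndufa4l2, the paralog of Ndufa4 induced by low oxygen, had 126 TPM in Control library 2, against 71.7, 80.8 and 72.5 TPM in the other Control libraries, and that gap was 0.832 of the whole range of the group. In Experimental libraries it had 54.8, 111, 85.8 and 112 TPM.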

How the results depend on the processing

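No paired analysis was possible because the columns carry no replicate number of the labels, so the replicate block was not run. The count of mitochondrial genes past the threshold was 0 in every fit. The 263 calls over all genes became 85 to 578 with 1 library left out, 4423 with library weights, 2595 without Control libraries 3 and 4, 544 without Control libraries 1 and 2 and 15 without Experimental libraries 2 and 4. The 1 nuclear gene called became 0 to 2 with 1 library left out, 0 with no filter on low values (Ndufa4, adjusted p = 0.0502 by limma), 32 with library weights, 24 without Control libraries 3 and 4 and 0 without Experimental libraries 2 and 4 (Ndufa4, adjusted p = 0.206). The causes were not tested, and fits that leave out libraries have fewer samples. The pairs left out stood high or low in genes of this set, so the direction of the shifts in those genes followed from the choice. The mitochondrial share differed by 2.68 percentage points, by 1.38 to 3.93 with 1 library left out and by -0.859 without Experimental libraries 2 and 4. The nuclear share differed by 0.0988 percentage points, by -0.0527 to 0.239 with 1 library left out, by -0.281 without Control libraries 3 and 4 and by 0.478 without Control libraries 1 and 2. The authors' table holds no mitochondrial rRNA or tRNA genes, so a share without them gave no further value. Other pseudocounts, a mean of 5 TPM, median centring, quantile normalization, rescaling and no trend kept these counts of genes within 1.5 times. Of 40 named genes of the set, up to 15 of those not called changed sign in a fit (without Experimental libraries 2 and 4), and no called gene did. Without Control libraries 1 and 2, Sdhb had an adjusted p of 0.0786, and without Experimental libraries 2 and 4 Sdhb and Bcs1l had 0.348 and 0.172 by limma. Depth is unknown, and values near 1 TPM are limited by the floor.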
